A study of Mus musculus with 16 samples.

Results

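Astrocytes release proteins that instruct neurons to form, mature or remove synapses, and the transcripts of 9 such secreted or shed factors were followed here: the thrombospondins Thbs1, Thbs2 and Thbs4, the matricellular pair Sparc and Sparcl1 (hevin), the glypicans Gpc4, Gpc5 and Gpc6, and the BMP-binding protein Chrdl1. They were taken by gene symbol from the table of log2 CPM (read counts scaled to library size, on a log2 scale), in which all 9 were listed among 16707 genes. The cells were primary cultures selected with anti-ACSA2 beads from the brains of WT (C57BL6J) and NLRX1-/- pups and grown in serum-free medium with heparin-binding EGF. Pups were at postnatal day 6 per the labels and the study's methods, though 1 sentence of its results gives a younger age. Each genotype had 4 replicates, each a set of pups that is called a litter here, and from each litter 1 well received vehicle (water) and 1 well received lipopolysaccharide (LPS, 500 ng/mL) with interferon gamma (IFNγ, 10 ng/mL), both for 24 h. That gave 16 poly-A libraries in 4 groups, with 27259420 to 43752903 reads assigned to transcripts per library. The NLRX1-/- mice are a global knockout, so their other brain cells lacked NLRX1 too, and each litter had 1 genotype, so that genotype differences were read against the spread between litters.

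Thrombospondins act through the calcium channel subunit α2δ-1 (Cacna2d1) on neurons to start structurally complete but postsynaptically silent synapses. Hevin bridges neurexins and neuroligins across the cleft, and SPARC opposes it. Glypicans 4 and 6 are heparan sulfate proteoglycans that bring AMPA receptors to the new synapse through receptor tyrosine phosphatases, glypican 5 is tied to later synapse maturation, and chordin-like 1 drives the switch of AMPA receptor subunits that ends plasticity in the developing visual cortex.

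In GRCm39 coordinates of the GENCODE annotation, Thbs1 lies at chr2:117941974-117957616 on the forward strand, Thbs2 at chr17:14885761-14914528 on the reverse strand and Thbs4 at chr13:92888095-92931501 on the reverse strand. Sparc lies at chr11:55285317-55314067 and Sparcl1 at chr5:104226288-104262065, both on the reverse strand. Gpc5 (chr14:115329647-116762591) and Gpc6 (chr14:117162727-118216940) are neighbours on the forward strand, whereas Gpc4 (chrX:51139255-51254262) and Chrdl1 (chrX:142068670-142177258) are both X-linked and on the reverse strand. All are protein-coding genes, and the values below count reads over their exons.

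Promoter sequences from RefSeq (build GRCm38.p6, 250 bases before to 50 bases after the start) were matched for 5 of the 9 genes, namely Gpc4, Gpc5, Sparc, Thbs2 and Thbs4. Shown are Sparc, the most abundant factor, Gpc5, with the largest fall, and Thbs2, with the largest rise. They are written 5′ to 3′ on the strand of the gene, with matches to TATAAA or GGGCGG on either strand in capitals (no match overlapped another).
Sparc, chr11:55420031-55420330, reverse strand: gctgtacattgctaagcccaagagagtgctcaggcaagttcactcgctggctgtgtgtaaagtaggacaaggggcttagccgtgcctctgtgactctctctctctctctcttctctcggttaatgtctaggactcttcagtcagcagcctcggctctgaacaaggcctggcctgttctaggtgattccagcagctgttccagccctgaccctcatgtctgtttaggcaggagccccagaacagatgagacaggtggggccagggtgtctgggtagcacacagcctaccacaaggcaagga
Gpc5, chr14:115091965-115092264, forward strand: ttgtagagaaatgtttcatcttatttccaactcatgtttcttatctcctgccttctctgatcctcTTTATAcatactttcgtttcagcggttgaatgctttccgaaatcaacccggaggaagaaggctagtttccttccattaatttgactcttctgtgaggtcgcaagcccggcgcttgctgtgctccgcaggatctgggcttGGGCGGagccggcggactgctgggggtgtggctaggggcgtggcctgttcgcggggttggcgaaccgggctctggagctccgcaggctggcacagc
Thbs2, chr17:14694213-14694512, reverse strand: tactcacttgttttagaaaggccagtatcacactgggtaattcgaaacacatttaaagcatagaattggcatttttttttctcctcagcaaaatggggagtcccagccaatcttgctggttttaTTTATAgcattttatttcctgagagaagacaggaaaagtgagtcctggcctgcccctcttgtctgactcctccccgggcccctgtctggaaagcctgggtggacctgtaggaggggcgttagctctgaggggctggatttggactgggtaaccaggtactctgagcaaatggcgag
The Sparc window held neither motif, the Gpc5 window held 1 of each and the Thbs2 window held 1 TATAAA. Across 32851 promoters of the same length, 13.6% held TATAAA and 35.7% held GGGCGG. The GC content of the windows was 55.3% for Sparc, 54.7% for Gpc5 and 48.3% for Thbs2, against a median of 52.7% over all promoters. At 72.0% the Thbs4 window was the richest of the 5 and held 3 copies of GGGCGG, and the Gpc4 window, at 66.7%, held 1. None of the 5 windows held, on either strand, the letters of the AP-1 site TGANTCA (7.81% of all promoters). A window without a match says only that these letters are not in it.

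The libraries were first checked against their labels. Nlrx1 lay between 4.08 and 4.44 log2 CPM in the 8 WT libraries and between 1.09 and 2.96 in the 8 NLRX1-/- libraries, without overlap. All 10 astrocyte markers were listed, with a summed level of 12.47 to 13.53 log2 CPM per library. Of 8 microglial markers P2ry12 alone was listed, at -3.25 to 0.88 log2 CPM, and Aif1, Cx3cr1, Tmem119, Csf1r, Itgam, Trem2 and Ptprc were not among the genes kept. The endothelial genes Cldn5, Pecam1, Cdh5 and Tek and the pericyte genes Kcnj8 and Abcc9 were not kept either. The endothelial and pericyte genes Flt1, Kdr, Pdgfrb and Rgs5 were kept, with a summed level of 2.27 to 4.49 log2 CPM. Also kept were 7 of 8 fibroblast, 7 of 8 neuronal and 6 of 7 ependymal markers. Their summed levels were 5.24 to 7.49, 4.46 to 6.56 and 6.24 to 7.97 log2 CPM in that order. All 9 markers of the oligodendrocyte lineage were listed, with a summed level of 10.76 to 11.64 log2 CPM. The median correlation of a library with the others of its group ranged from 0.969 to 0.984 and was lowest for NLRX1-/- litter 3 in vehicle. Apart from the lowest values, no 2 libraries of the same group held an identical value for a gene. Libraries of different groups were not compared in this way.

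The 9 factors spanned more than 3 orders of magnitude in TPM, Salmon's share of transcripts in a library, which is per length and so allows genes to be compared. In WT vehicle cultures Sparc stood highest at 1370 TPM ± 108 (SD, n = 4) and above 99.3% of genes, followed by Sparcl1 at 459 ± 163 and Gpc4 at 91.8 ± 19.4. Thbs1 at 31.7 ± 9.24 TPM and Chrdl1 at 20.6 ± 2.66 TPM overlapped in range between libraries. Within each library Thbs1 was the higher, by the least in litter 4 (19.7 against 17.1 TPM). Gpc6 followed at 11.6 ± 2.55 TPM, Gpc5 at 3.45 ± 1.29, Thbs2 at 1.23 ± 0.416 and Thbs4 at 0.466 ± 0.129, each of these separated from the next by its range.

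The order of the top 3 was the same in each of the 4 groups, with no overlap between neighbours. Sparc averaged 856 ± 59.7 TPM in stimulated WT cultures, and 843 ± 362 and 586 ± 137 TPM in NLRX1-/- cultures without and with LPS+IFNγ. For Sparcl1 the means were 267 ± 98.5, 311 ± 99.5 and 164 ± 52.6 TPM in that order of groups, and for Gpc4 they were 51.5 ± 9.25, 98.0 ± 17.2 and 77.1 ± 20.2 TPM. At the low end the order changed and the ranges met: Thbs2 and Thbs4 overlapped in NLRX1-/- vehicle, and Thbs2 and Gpc5 overlapped in both stimulated groups. Within each stimulated WT library Gpc5 was still the higher, by the least in litter 1 (0.866 against 0.854 TPM). The lowest genes rested on few reads: Thbs4 rested on 9 to 82 reads per library, Thbs2 on 38 to 221 and Gpc5 on 36.3 to 266, against 19186 to 75494 for Sparc.

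**Figure D1:**
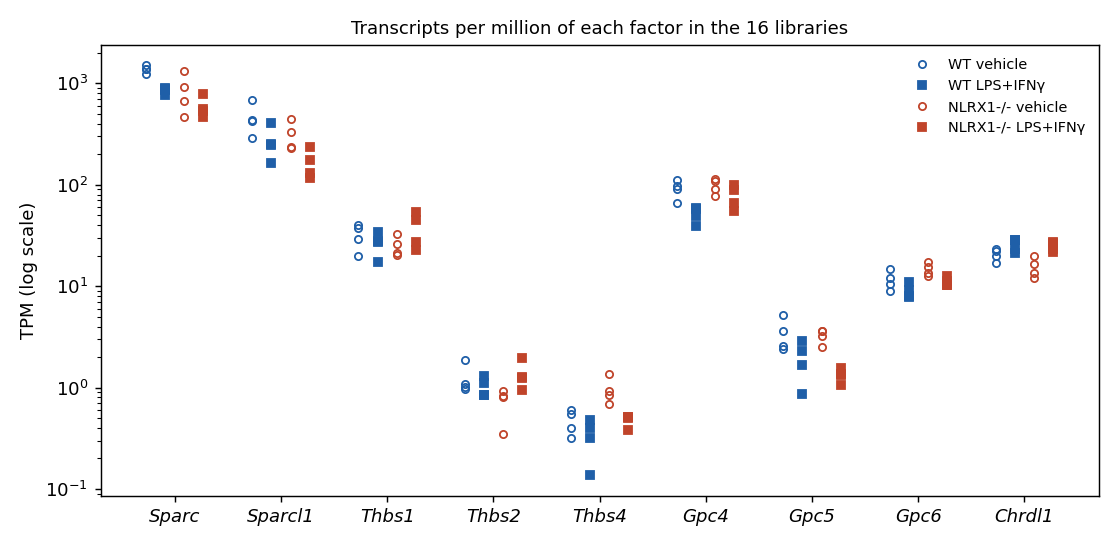
TPM of each factor on a log axis, with each point 1 library (open circles vehicle, filled squares LPS+IFNγ, blue WT, red NLRX1-/-, 4 libraries per group). Sparc, at 1370 ± 108 TPM in WT vehicle, lies far above Thbs4, at 0.466 ± 0.129 TPM.

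The first question was how WT astrocytes changed these transcripts on stimulation. Of the 9 factors, 4 fell and 1 rose: Sparcl1, Sparc, Gpc4 and Gpc5 went down by between 27.2% and 36.3%, and Chrdl1 went up 1.43-fold. Each of these moved the same way in 4 of 4 litters. The thrombospondins and Gpc6 did not pass the test. edgeR, DESeq2 and limma-voom on summed counts each called 5 as well, 1 up and 4 down. Of all 16707 genes, 24.9% were called higher and 21.9% lower, 46.7% in all, so that 5 of 9 is near the background and is not by itself a result about these genes. Their median response was -0.32 on the log2 scale, against -0.02 over all genes. The stimulus itself was strong: of 12 well known response genes 11 rose, led by the chemokines Cxcl10 (log2 response 10.62 ± 0.24, SE) and Ccl2 (9.13 ± 0.36) and the iron carrier Lcn2 (9.03 ± 0.42).

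Hevin (Sparcl1) had the response with the lowest standard error. Sparcl1 in WT vehicle measured 8.69, 9.30, 9.26 and 9.98 log2 CPM in litters 1 to 4, and 8.05, 8.80, 8.78 and 9.40 log2 CPM after LPS+IFNγ. The 2 sets of wells overlapped, because litters differed from each other by more than the response, yet every litter went down by 0.48 to 0.64. The log2 response was -0.55 ± 0.04 (SE, n = 4 litters; limma, Benjamini-Hochberg adjusted p = 1.01e-06).

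Sparc, its antagonist, measured 10.51, 10.82, 10.66 and 10.68 log2 CPM in vehicle and 10.16, 10.34, 10.28 and 10.05 log2 CPM after stimulation, without overlap. Its log2 response was -0.46 ± 0.11 (limma adjusted p = 0.00454). Both members of the pair thus went down in WT cells.

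Gpc4, which recruits GluA1-containing AMPA receptors, measured 6.73, 6.88, 7.05 and 6.30 log2 CPM in vehicle and 6.31, 6.36, 6.10 and 5.75 log2 CPM after stimulation. Its log2 response was -0.61 ± 0.12 (limma adjusted p = 0.00142). Litter 4 lay lowest in either condition, and its vehicle well fell within the range of the stimulated ones.

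Gpc5 measured 1.72, 2.34, 1.81 and 2.85 log2 CPM in vehicle and 0.51, 1.95, 1.45 and 2.20 log2 CPM after stimulation. The log2 response was -0.65 ± 0.19 (limma adjusted p = 0.0131), with -1.21 in litter 1 and -0.36 to -0.64 in the others. Without litter 1 it was -0.46 and was no longer called (adjusted p = 0.0781).

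Chrdl1 measured 5.22, 5.33, 5.09 and 4.89 log2 CPM in vehicle and 5.77, 5.87, 5.56 and 5.39 log2 CPM after stimulation, without overlap between the groups. Its litter responses, 0.54, 0.54, 0.48 and 0.50, were nearly equal, for a log2 response of 0.52 ± 0.09 (limma adjusted p = 0.000801). It was the single factor of the 9 that rose in WT cells.

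Gpc6, the paralog that acts with Gpc4, had a log2 response of -0.13 ± 0.07 (limma adjusted p = 0.166). Thbs1, the thrombospondin best known for synapse formation with Thbs2, had a response of -0.02 ± 0.20 (adjusted p = 0.932), with litters at 0.05, 0.18, -0.32 and 0.00. Thbs2 had a response of -0.02 ± 0.25 (adjusted p = 0.952), and Thbs4 one of -0.32 ± 0.30 (adjusted p = 0.415). The signs of the Thbs1 and Thbs2 values turned under single alternatives, so they carry no direction.

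**Figure D2:**
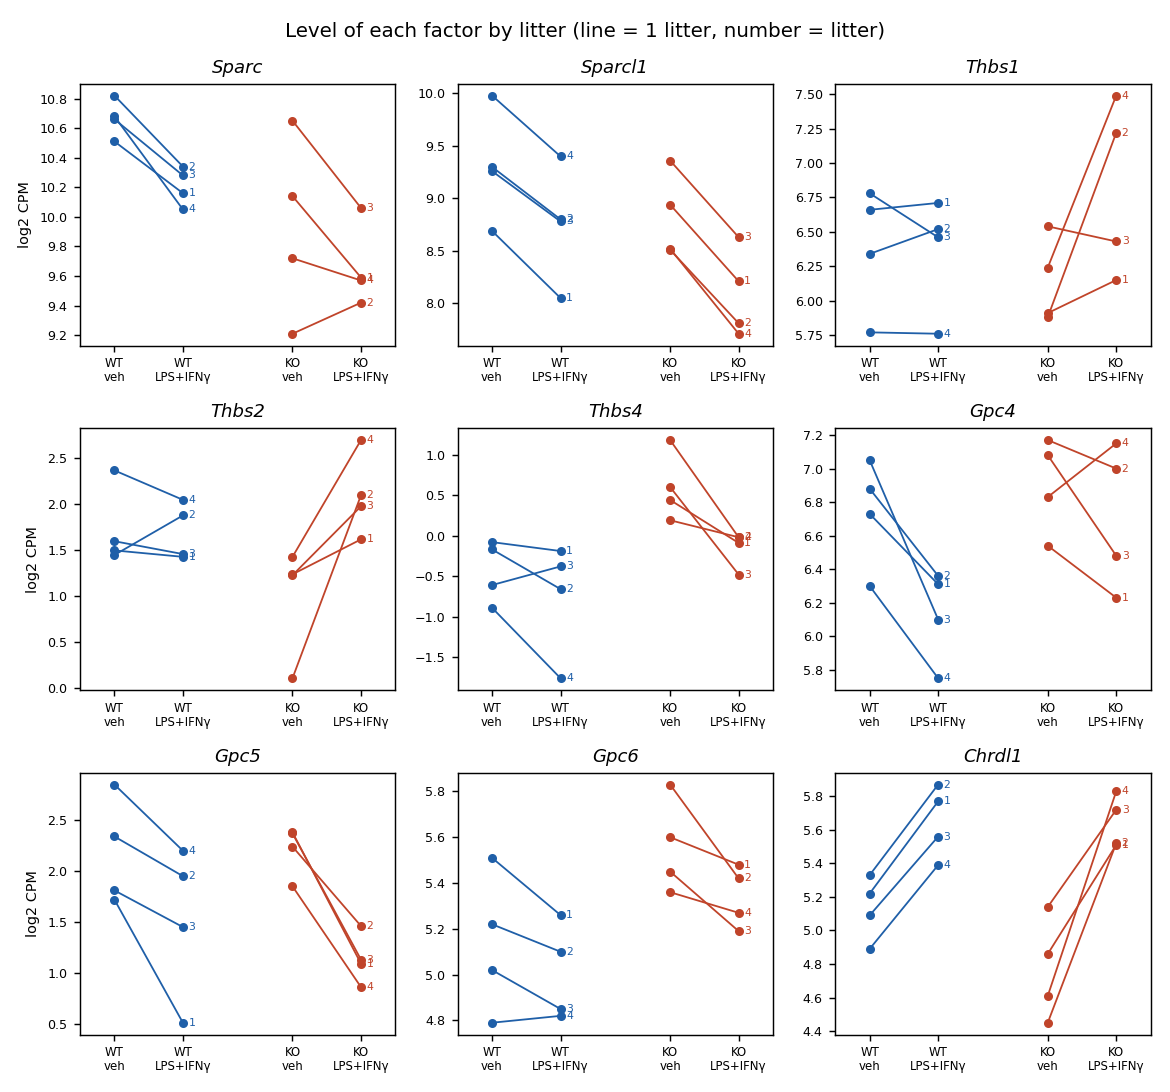
Log2 CPM of each factor in vehicle (veh) and LPS+IFNγ, with 1 line per litter and the litter number at its right end (blue WT, red NLRX1-/-, labelled KO; each panel has its own vertical scale). All 4 WT lines go down for Sparc, Sparcl1, Gpc4 and Gpc5 and up for Chrdl1, while NLRX1-/- litters 2 and 4 rise steeply for Thbs1.

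In NLRX1-/- astrocytes 3 factors rose and 3 fell. Chrdl1, Thbs1 and Thbs2 went up by 1.84-fold, 1.61-fold and 2.14-fold, and Sparcl1, Gpc5 and Gpc6 went down. The fall of Gpc5, to 0.474 of its vehicle level, was the largest. Over all genes 26.6% were called higher and 25.5% lower, 52.1% in all, against 6 of 9 here. Sparc, Gpc4 and Thbs4 did not pass. edgeR and DESeq2 on summed counts also called 3 up and 3 down, while limma-voom called 3 up and 5 down, with Sparc (adjusted p = 0.0356) and Thbs4 (adjusted p = 0.0372) among the latter. The median response of the 9 was -0.22 on the log2 scale and that of all genes was -0.02.

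Thbs2 measured 1.24, 0.11, 1.23 and 1.43 log2 CPM in vehicle and 1.62, 2.10, 1.98 and 2.70 log2 CPM after stimulation, so that no stimulated well reached down to a vehicle well. Litter 2 had the lowest vehicle value of all 16 libraries and the largest rise. The litter responses were 0.38, 2.00, 0.75 and 1.27, for a log2 response of 1.10 ± 0.25 (SE, n = 4 litters; limma adjusted p = 0.00271). It stayed called without any single litter, at 0.80 to 1.34.

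Thbs1 measured 5.91, 5.88, 6.54 and 6.24 log2 CPM in vehicle and 6.15, 7.22, 6.43 and 7.49 log2 CPM after stimulation. Litters 2 and 4 rose by 1.35 and 1.25, litter 1 by 0.25, and litter 3 stood at -0.11. The log2 response was 0.68 ± 0.20 (limma adjusted p = 0.0113) and rested on those litters: it was 0.46 without litter 2 (adjusted p = 0.066) and 0.50 without litter 4 (adjusted p = 0.0695), and 0.95 without litter 3.

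Chrdl1 measured 4.86, 4.45, 5.14 and 4.61 log2 CPM in vehicle and 5.51, 5.52, 5.72 and 5.83 log2 CPM after stimulation, again without overlap. Its log2 response was 0.88 ± 0.09 (limma adjusted p = 1.08e-05). Litters 2 and 4, at 1.06 and 1.22, rose more than litters 1 and 3, at 0.64 and 0.59.

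Sparcl1 measured 8.94, 8.51, 9.36 and 8.52 log2 CPM in vehicle and 8.21, 7.81, 8.63 and 7.71 log2 CPM after stimulation. The responses of -0.73, -0.70, -0.73 and -0.81 were as even as in WT cells, for a log2 response of -0.74 ± 0.04 (limma adjusted p = 6.54e-08).

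Gpc5 measured 2.38, 2.24, 2.37 and 1.85 log2 CPM in vehicle and 1.09, 1.46, 1.13 and 0.86 log2 CPM after stimulation, without overlap. Its log2 response was -1.08 ± 0.19 (limma adjusted p = 0.00046). Gpc6 had a smaller log2 response of -0.22 ± 0.07 (adjusted p = 0.0198), with litters at -0.12, -0.41, -0.26 and -0.10, and it was not called without litter 2 (-0.16, adjusted p = 0.103) or litter 3 (-0.21, adjusted p = 0.0558).

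Sparc was uneven in NLRX1-/- cells. It measured 10.14, 9.21, 10.65 and 9.72 log2 CPM in vehicle and 9.59, 9.42, 10.06 and 9.57 log2 CPM after stimulation, with litter 2 lowest and litter 3 highest in both conditions. The litter responses were -0.55, 0.21, -0.59 and -0.14, and the log2 response of -0.27 ± 0.11 did not pass (limma adjusted p = 0.0563). Without litter 2 it was -0.43 and was called (adjusted p = 0.00171).

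Gpc4 measured 6.54, 7.17, 7.08 and 6.83 log2 CPM in vehicle and 6.23, 7.0, 6.48 and 7.15 log2 CPM after stimulation, with a log2 response of -0.19 ± 0.12 (limma adjusted p = 0.213). Litter 4, at 0.32, went against the other 3, and without it the response was -0.36 (adjusted p = 0.014). Thbs4 measured 0.44, 1.18, 0.60 and 0.19 log2 CPM in vehicle and -0.09, -0.02, -0.48 and -0.02 after stimulation, without overlap. Its log2 response of -0.76 ± 0.30 missed the threshold (adjusted p = 0.052) and lay on either side of it with 1 litter left out, at 0.0421 to 0.186.

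Cell type markers moved with both responses, in which 46.7% of all genes were called in WT and 52.1% in NLRX1-/- cells. Of 9 oligodendrocyte lineage markers 6 fell in WT and 8 in NLRX1-/- cells, and of 7 fibroblast markers listed 3 fell in each. Most of the summed fibroblast level came from Pdgfra, which oligodendrocyte precursors also express and which fell from a mean of 6.97 to 5.64 log2 CPM in WT and from 6.37 to 4.81 in NLRX1-/- cells. The other 6 fibroblast markers summed to 4.55 to 4.99 log2 CPM in WT vehicle and 3.86 to 4.65 after stimulation, and to 4.12 to 6.26 and 3.68 to 5.79 in NLRX1-/- cells. Of 4 endothelial and pericyte markers listed 3 rose and 1 fell in NLRX1-/- cells, where their summed level went from 2.27 to 4.08 log2 CPM in vehicle to 3.35 to 4.08 after stimulation. The microglial gene P2ry12 rose in both genotypes, 3 of 7 neuronal markers listed rose and 2 fell in WT and 2 rose and 3 fell in NLRX1-/- cells, and 2 of 6 ependymal markers fell in WT and 4 in NLRX1-/- cells. Of 10 astrocyte markers 2 rose and 5 fell in WT, and 2 rose and 6 fell in NLRX1-/- cells. The part of these shifts in the values of the 9 factors was not tested, and in bulk cultures fewer cells of a type and less RNA per cell cannot be told apart. When litters were left out of the model, 2 of the 9 factors were called in WT and 3 in NLRX1-/- cells, where 35.6% and 41.6% of all genes were.

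Whether the response itself differed between genotypes was asked with the interaction term, the NLRX1-/- response minus the WT response. None of the 9 factors passed in limma, nor did any of the 16707 genes (0.0% called), and edgeR and limma-voom on summed counts called 0 of the 9 as well. DESeq2 called 0 of the 6 to which it gave an adjusted p, with none given for Thbs2, Thbs4 and Gpc5, and called 1.93% of all genes. At an unadjusted p under 0.05 stood 5 of the 9, where 16.7% of all genes did. These were Thbs2, Sparcl1, Chrdl1, Thbs1 and Gpc4.

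For Thbs2 the responses differed by 1.12 ± 0.35 on the log2 scale (unadjusted p = 0.00757, limma adjusted p = 0.182). For Thbs1 the difference was 0.71 ± 0.28 (unadjusted p = 0.0251, limma adjusted p = 0.237), which passed without NLRX1-/- litter 3 (0.97, adjusted p = 0.0332) and was 0.49 without litter 2 (adjusted p = 0.43) and 0.52 without litter 4 (adjusted p = 0.446). The NLRX1-/- litters of both genes spread widely, with an SD of 0.70 for Thbs2 and 0.73 for Thbs1, against 0.32 and 0.21 in WT.

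Sparcl1 and Chrdl1 were the factors whose litter responses did not overlap between genotypes, as was the case for 8.31% of all genes. Sparcl1 responses lay between -0.64 and -0.48 in WT and between -0.81 and -0.70 in NLRX1-/- cells, a difference of -0.19 ± 0.06 (limma adjusted p = 0.184). Chrdl1 responses lay between 0.48 and 0.54 in WT and between 0.59 and 1.22 in NLRX1-/- cells, a difference of 0.36 ± 0.13 (adjusted p = 0.217). For Gpc4 the difference was 0.42 ± 0.17 (adjusted p = 0.254), for Gpc5 -0.43 ± 0.26 (adjusted p = 0.441), for Sparc 0.19 ± 0.15 (adjusted p = 0.573), for Thbs4 -0.44 ± 0.42 (adjusted p = 0.644) and for Gpc6 -0.10 ± 0.10 (adjusted p = 0.673).

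**Figure D3:**
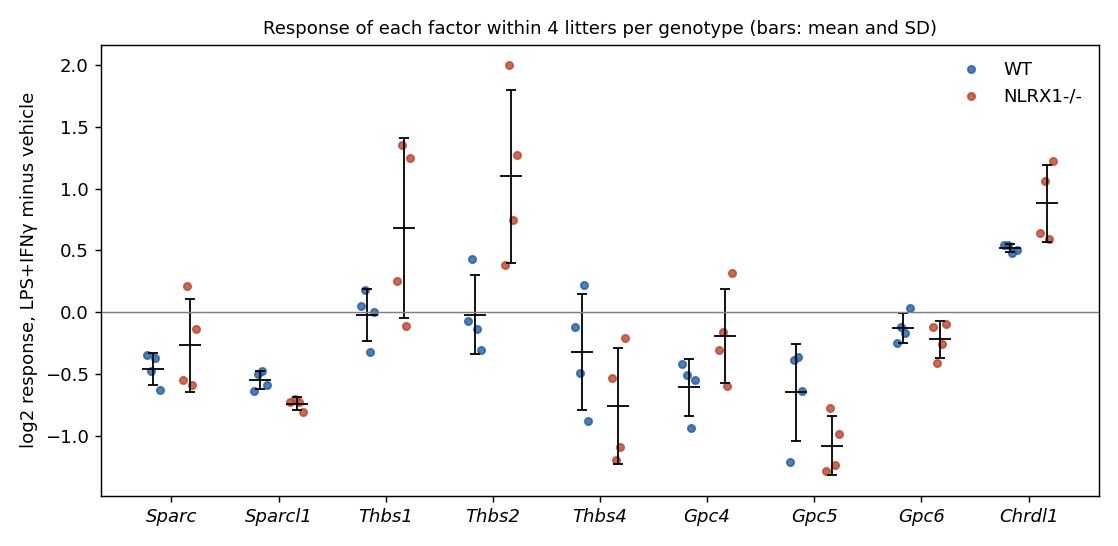
Log2 response (LPS+IFNγ minus vehicle, log2 CPM) of each factor, with 1 point per litter and the mean and SD of 4 litters as black bars (blue WT, red NLRX1-/-). The WT and NLRX1-/- points separate for Sparcl1 (-0.64 to -0.48 against -0.81 to -0.70) and Chrdl1 (0.48 to 0.54 against 0.59 to 1.22) and overlap for the rest, and the NLRX1-/- points for Thbs1 and Thbs2 are the most spread.

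The next comparisons were of levels between genotypes, and in vehicle none of the 9 factors passed the threshold (limma, 1 of 16707 genes called, 0.00599%). edgeR and limma-voom on summed counts called none of the 9. DESeq2 called Sparc (adjusted p = 0.047) of the 8 to which it gave an adjusted p, Thbs4 being without one, where it called 4.86% of all genes. Unlike limma, edgeR and DESeq2 had no litter term here, so the wells of a litter counted as independent. At an unadjusted p under 0.05 stood 5 of the 9, where 22.0% of all genes did: Sparc, Thbs2 and Chrdl1 with lower and Thbs4 and Gpc6 with higher means in NLRX1-/- cells.

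Thbs2 and Thbs4, the factors with the fewest reads beside Gpc5, were the ones whose groups did not overlap, as for 9.45% of all genes. Thbs2 ranged from 1.45 to 2.37 log2 CPM in WT and from 0.11 to 1.43 in NLRX1-/- vehicle cultures, a difference of -0.73 ± 0.31 (exact permutation p = 0.0286, the smallest that 4 against 4 allows; limma adjusted p = 0.188), which was -0.43 without NLRX1-/- litter 2 (adjusted p = 0.548). Thbs4 ranged from -0.89 to -0.08 log2 CPM in WT and from 0.19 to 1.18 in NLRX1-/- cultures, a difference of 1.04 ± 0.35 (exact permutation p = 0.0286; limma adjusted p = 0.107). The means of these paralogs thus differed in opposite directions in unstimulated cells.

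Sparc had the lowest adjusted p of the 9, with a difference of -0.74 ± 0.20 (exact permutation p = 0.0571; limma adjusted p = 0.0797). Its 4 WT vehicle wells lay between 10.51 and 10.82 log2 CPM. NLRX1-/- litters 1, 2 and 4 lay below them, at 10.14, 9.21 and 9.72, and litter 3 lay among them at 10.65. Without litter 3 the difference was -0.98 and was called (adjusted p = 0.00424), and without litter 2 it was -0.50 (adjusted p = 0.277).

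Gpc6 differed by 0.43 ± 0.13 (limma adjusted p = 0.0903), from 4.79 to 5.51 log2 CPM in WT to 5.36 to 5.83 in NLRX1-/- cells, and was called without WT litter 1 (0.55, adjusted p = 0.0327) or NLRX1-/- litter 3 (0.47, adjusted p = 0.0488), with 0.31 as the smallest difference over the left-out litters (adjusted p up to 0.343). Chrdl1 differed by -0.36 ± 0.14 (adjusted p = 0.147) and was called without NLRX1-/- litter 3 (-0.49, adjusted p = 0.0297), while without litter 2 it stood at -0.26 (adjusted p = 0.473). The others stood at -0.47 ± 0.25 for Sparcl1 (adjusted p = 0.284), -0.25 ± 0.29 for Thbs1 (adjusted p = 0.662), 0.17 ± 0.20 for Gpc4 (adjusted p = 0.672) and 0.04 ± 0.30 for Gpc5 (adjusted p = 0.966). No marker of any cell type list was called here by limma, while 6 of 10 astrocyte and 5 of 9 oligodendrocyte lineage markers stood at an unadjusted p under 0.05.

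After LPS+IFNγ, again none of the 9 passed, where 12.2% of all genes did. edgeR and limma-voom on summed counts called none of them. DESeq2, again without a litter term, called Gpc4 (adjusted p = 0.029), where it called 15.6% of all genes. At an unadjusted p under 0.05 stood 4 of the 9, where 29.8% of all genes did: Gpc4 and Gpc6 with higher and Sparc and Sparcl1 with lower means in NLRX1-/- cells. The groups overlapped for each of the 9 factors, while they did not for 13.3% of all genes.

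Gpc4 ranged from 5.75 to 6.36 log2 CPM in WT and from 6.23 to 7.15 in NLRX1-/- stimulated cultures, a difference of 0.58 ± 0.20 (exact permutation p = 0.0857; limma adjusted p = 0.061). It was called without NLRX1-/- litter 1 (0.75, adjusted p = 0.037) or litter 3 (0.66, adjusted p = 0.031), and was 0.44 without NLRX1-/- litter 4 (adjusted p = 0.193) and 0.46 without WT litter 4 (adjusted p = 0.185). Sparc differed by -0.55 ± 0.20 (exact permutation p = 0.0571; limma adjusted p = 0.0819), and was called without NLRX1-/- litter 3 (-0.68, adjusted p = 0.00637), with -0.47 as the smallest difference over the left-out litters (adjusted p up to 0.199).

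Sparcl1 differed by -0.67 ± 0.25 (limma adjusted p = 0.0891), with WT wells at 8.05 to 9.40 log2 CPM and NLRX1-/- wells at 7.71 to 8.63. It was called without WT litter 1 (-0.90, adjusted p = 0.0224) or NLRX1-/- litter 3 (-0.85, adjusted p = 0.0219), and was -0.45 without WT litter 4 (adjusted p = 0.251). Gpc6 differed by 0.33 ± 0.13 (adjusted p = 0.0994), and without WT litter 1 by 0.41 (adjusted p = 0.0348) and at the least by 0.27 with another litter left out. Chrdl1 had nearly equal means of 5.65 log2 CPM in WT and 5.64 in NLRX1-/- cells (difference 0.00 ± 0.14, adjusted p = 0.992). Thbs1 stood at 0.46 ± 0.29 (adjusted p = 0.295), Thbs2 at 0.40 ± 0.31 (adjusted p = 0.421), Thbs4 at 0.60 ± 0.35 (adjusted p = 0.258) and Gpc5 at -0.39 ± 0.30 (adjusted p = 0.403).

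Markers of the oligodendrocyte lineage were also lower in stimulated NLRX1-/- cultures, with 6 of 9 called and a summed level of 10.76 to 11.24 log2 CPM against 11.24 to 11.35 in WT. Of 10 astrocyte markers 4 were called lower there, among them Aqp4 and Gja1, with a summed level of 12.47 to 12.92 against 12.72 to 13.28 log2 CPM. Of 6 ependymal markers listed 4 were called lower. Over all genes 6.36% were called lower. With 1 treatment at a time limma called 1 gene of 16707, and without WT litter 2, 3 and 4 it called 1, 2 and 1. Most of these marker calls were therefore lost in those settings. The part of the markers in the values of the 9 factors was not tested.

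**Figure D4:**
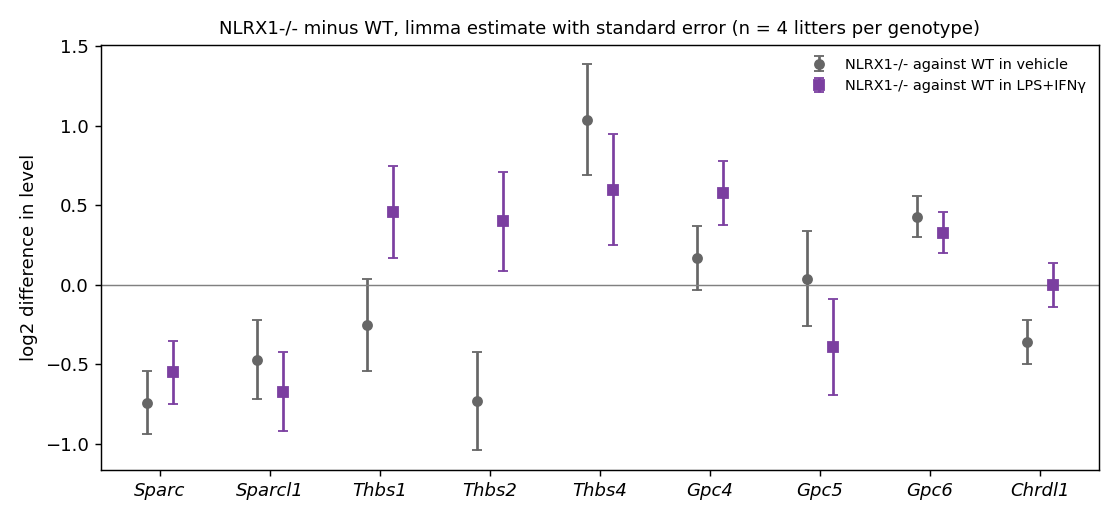
Difference in level between NLRX1-/- and WT cultures (log2 CPM, limma estimate with its standard error, 4 litters per genotype) in vehicle (grey circles) and LPS+IFNγ (purple squares). Sparc and Sparcl1 lie below 0 and Thbs4, Gpc4 and Gpc6 above 0 in both treatments, Thbs1 and Thbs2 lie below 0 in vehicle and above 0 after stimulation, and none passed the adjusted threshold.

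The genes around the 9 factors were described by lists of paralogs, receptors, modifying enzymes and other glial regulators of synapses. Their response counts stand beside 24.9% of all genes called higher and 21.9% lower in WT. In NLRX1-/- cells these shares were 26.6% and 25.5%. Of 10 listed paralogs (other thrombospondins, SPARC family members, glypicans and chordins) 6 fell and 1 rose in WT and 9 fell and 1 rose in NLRX1-/- cells, with median responses of -0.61 and -0.88 on the log2 scale. The matricellular proteins Smoc2 (-2.33 ± 0.38 in WT, -2.60 ± 0.38 in NLRX1-/- cells) and Smoc1 (-1.28 ± 0.16 and -1.91 ± 0.16) had the largest falls, followed by the glypican Gpc2 (-0.83 ± 0.10 and -0.95 ± 0.10). Comp, Spock3 and Chrdl2 were not among the genes kept. No paralog was called by limma between genotypes in vehicle or after stimulation, where 2 and 4 stood at an unadjusted p under 0.05.

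Of 19 receptors and binding partners 7 rose and 6 fell in WT, and 6 rose and 9 fell in NLRX1-/- cells. Bmp7, a ligand of the family that chordin-like proteins bind, rose (2.26 ± 0.19 in WT, 1.87 ± 0.19 in NLRX1-/- cells), and so did the thrombospondin receptor Cd47 (1.56 ± 0.16 and 1.89 ± 0.16). Bmp6, another such ligand, fell (-2.10 ± 0.36 and -1.09 ± 0.36). In stimulated NLRX1-/- cultures 1 of the 19 was called higher than in WT (5.81% of all genes) and 6 lower (6.36%). Most of these calls were lost in other settings. Over all genes limma called 1 there with 1 treatment at a time, and 1, 2 and 1 without WT litter 2, 3 and 4. In vehicle limma called none, and 6 stood at an unadjusted p under 0.05.

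Of 15 genes for heparan sulfate synthesis and glypican release 7 rose and 1 fell in WT, and 5 rose and 2 fell in NLRX1-/- cells. The sulfotransferase Hs6st1 rose by a similar amount in either genotype (0.53 ± 0.06 and 0.55 ± 0.06), as did the polymerase Ext1 (0.41 ± 0.05 and 0.39 ± 0.05). Xylt1, which starts the chain, fell (-0.50 ± 0.10 and -0.64 ± 0.10). None of the 15 stood at an unadjusted p under 0.05 in the interaction. Between genotypes in vehicle limma called none, and 6 stood at an unadjusted p under 0.05 (22.0% of all genes). In stimulated NLRX1-/- cultures 2 were called higher than in WT (5.81% of all genes), among them Ext1 (0.27 ± 0.08, limma adjusted p = 0.0422). Those calls depended on the setting: limma called no gene higher there with 1 treatment at a time, or without WT litter 2, 3 or 4.

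Of 14 other glial regulators of synapses 5 rose and 6 fell in WT, and 5 rose and 5 fell in NLRX1-/- cells, while Tnf was not among the genes kept. The pentraxin Nptx1, which clusters AMPA receptors, rose (2.30 ± 0.20 and 1.76 ± 0.20), the neurotrophin Bdnf fell (-1.53 ± 0.17 and -0.80 ± 0.17), and the cytokine Il33, which drives synapse engulfment by microglia, fell (-1.18 ± 0.12 and -1.27 ± 0.12). In stimulated NLRX1-/- cultures 1 of the 14 was called higher than in WT (5.81% of all genes) and 2 lower (6.36%). The higher one was Bdnf (0.91 ± 0.22, limma adjusted p = 0.0235). These calls depended on the setting. With 1 treatment at a time, or without WT litter 2, 3 or 4, limma called no gene higher there and 1 or 2 of all genes lower.

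Transcript shares described which forms of the factors were read. A single transcript model held a median of 97.8% of Sparcl1 reads and 93.8% of Gpc6 reads over the 16 libraries, and Thbs2 and Thbs4 had 1 model each. Gpc4 reads split into 73.5% for a model of 2325 bases and 26.5% for one of 5546 bases. For Thbs1 the models with 57.9% and 42.1% differed in length by a few bases, as did those of Sparc with 81.8% and 18.2%, so that their split is uncertain. These are estimates of read assignment from short reads, with no test.

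Over the 16 libraries, the genes most alike in level to each factor called in a response were given by Pearson's r across log2 CPM, as a description, since the libraries share litters and treatments. Sparcl1 was followed most closely by Spire1 (r = 0.980) and Hsd17b11 (r = 0.976), and Sparc by Pkp2 (r = 0.968) and Actn1 (r = 0.967). Thbs1 ran with Lrp2 (r = 0.917) and Gxylt2 (r = 0.886), and Thbs2 with Igsf10 (r = 0.878) and Zeb2 (r = 0.875). For the glypicans these were Mios (r = 0.930) and Grb10 (r = 0.912) for Gpc4, Gm46911 (r = 0.913) and Dyrk2 (r = 0.887) for Gpc5, and Lrrn2 (r = 0.939) and Prkcb (r = 0.925) for Gpc6. Chrdl1 stood nearest to Rbms1 and Pcgf5, both at r = 0.936.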

How the data were processed

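Primary astrocytes from 4 WT and 4 NLRX1-/- litters, each with a vehicle and an LPS+IFNγ well, were profiled by unstranded poly-A RNA sequencing (16 libraries). The authors quantified reads with Salmon 1.7.0 against GRCm39 transcripts, imported length-scaled counts, dropped genes of low count and applied TMM normalization, tools and build being named in the labels and methods. They deposited log2 CPM per gene, the same CPM without the log (unit signal), and per library Salmon expected counts and TPM per transcript with effective lengths.

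All tests ran on the deposited log2 CPM of 16707 genes with limma 3.58.1 (trend on mean level, two-sided, Benjamini-Hochberg over all genes, threshold 0.05). Responses and the interaction used litters as fixed blocks within genotype, as in the study's formula. Genotype differences used 4 condition means with litter as a random block (within-litter correlation 0.364). Vehicle and stimulated wells of a litter came from the same mice by the series design, and the residuals of the wells of a litter correlated at 0.073 to 0.355. TPM were summed per gene over transcripts for levels between genes, since TPM are per length. They carry no TMM adjustment and were not tested. Expected counts were summed per gene and rounded for edgeR 4.0.16, DESeq2 1.42.0 and limma-voom, run as alternatives. For genotype differences edgeR and DESeq2 had no litter term, so the wells of a litter counted as independent. Summed counts of the 9 genes deviated from the log2 CPM by -0.10 to 0.17 at most after a common factor per library. The tests were tried on simulated data. Exact permutation tests of 4 against 4 litters cannot go below 0.0286. No depth interval is given beyond read counts. The limma p-values of responses and the interaction measure how responses spread between litters, with the level of each litter removed. Those of genotype differences draw on both wells of each litter under the within-litter correlation of 0.364, not on 1 value per litter. Counting used no strand, so overlapping and antisense reads cannot be told apart.

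The 9 factors and all lists were chosen with earlier results of these data known. All 9 factors are named in every comparison. From each list of related genes the 3 with the largest absolute WT response among those called are named, and for each factor called the 2 genes with the highest Pearson r. Marker lists are given as counts and ranges.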

Additional observations from a re-analysis of the deposited data

Results flagged for a closer look

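In 3 of 54 groups of 4 libraries or litters, 1 value stood apart from the rest of its group, by a gap to its neighbour that took up most of the group's range. Chance flags about 1 in 20 such groups. The gap took up 0.835 of the range for Thbs2 in WT vehicle, where litter 4 stood at 2.37 log2 CPM and the others at 1.45 to 1.60. It took up 0.852 for Thbs2 in NLRX1-/- vehicle, where litter 2 stood at 0.11 and the others at 1.23 to 1.43. It took up 0.856 for Thbs4 in NLRX1-/- LPS+IFNγ, where litter 3 stood at -0.48 and the others at -0.09 to -0.02. These are the factors with the lowest read numbers beside Gpc5.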

How the results depend on the processing

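Over 477 values from other settings, 449 kept direction and side of the threshold, 10 lost the call, 14 gained it and 4 turned sign. With 1 litter left out, these numbers were 333, 5, 15 and 7 of 360. A main value of 0.00 could not be counted as turning sign. Chrdl1 between genotypes after LPS+IFNγ therefore stands among the values kept, though it took either sign (-0.09 to 0.07). Some agreement was fixed in advance. Leaving out a litter of 1 genotype cannot change the response estimate of the other, and the threshold of 0.01 was applied to the main fit itself.

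Without the replicate block for litters, the factors called were 2 of 9 in the WT response and 3 of 9 in the NLRX1-/- response, against 5 and 6, and over all genes 5954 and 6949, against 7810 and 8704. With 1 litter left out, 0 to 1 were called in the interaction, 0 to 3 between genotypes in vehicle and 0 to 3 after LPS+IFNγ. The highest number of each came without NLRX1-/- litter 3, where 4.92%, 11.2% and 23.9% of all genes were called in that order. DESeq2 called 1 in vehicle and 1 after LPS+IFNγ, and gave no adjusted p for Thbs4 in vehicle or for Thbs2, Thbs4 and Gpc5 in the interaction. A replicate block on the litter number across genotypes called 2 in vehicle (Gpc6, Sparc) and 2 after LPS+IFNγ (Gpc4, Gpc6). Over all genes that block called 3.51% in vehicle and 15.8% after LPS+IFNγ. Pups of both genotypes were born on a shared day by the published text, to which the labels tie no number. Same-numbered litters of the 2 genotypes correlated at -0.10 to 0.14, against 0.073 to 0.355 for the wells of a litter. These ranges overlap, so the correlations cannot decide whether the numbers are pairs. They were not taken as pairs. A culture day shared by number and the causes of these changes were not tested.

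Values that turned sign were, for the WT response, Thbs1 without WT litter 3 (0.07, with a range of -0.09 to 0.07 over all left-out litters) and Thbs2 under quantile normalization (0.04) and without WT litter 3 (0.02) or 4 (0.08, range -0.17 to 0.08). For Gpc5 between genotypes in vehicle they were -0.04 by edgeR with or without a low-count filter, -0.05 by DESeq2, and -0.12, -0.09, -0.02 and -0.02 without WT litter 1 or 3 or NLRX1-/- litter 1 or 3 (range -0.12 to 0.26). None of these passed a threshold. Chrdl1 between genotypes after LPS+IFNγ had a main value of 0.00 and was not counted here, though it took either sign over the left-out litters (-0.09 to 0.07).

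Quantile normalization lowered the share of higher calls over all genes from 53.2% to 39.6% in WT and from 51.1% to 39.0% in NLRX1-/- cells, and it called Gpc6 in WT (-0.23) and Sparc (-0.51) and Gpc4 (-0.36) in NLRX1-/- cells. Over all genes, calls between genotypes moved most: after LPS+IFNγ limma called 2034, DESeq2 2502, edgeR 759, edgeR without a filter 552, limma-voom 1215, limma without a trend 700, limma on 1 treatment at a time 1, limma at an adjusted p under 0.01 3, and limma with 1 litter left out 1 to 3999. In vehicle limma called 1, edgeR 0, DESeq2 781, quantile normalization 3, the number block 587, and limma without NLRX1-/- litter 3 called 1871 and without WT litter 1 called 801. In the interaction DESeq2 called 310 and limma without NLRX1-/- litter 3 called 822. Thbs4 gave no value where a mean of at least 1 log2 CPM was required. Read numbers were lowest for Thbs4, Thbs2 and Gpc5, with as few as 9, 38 and 36.3 reads in a library.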
